A study of Mus musculus with 32 samples.

Results

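The 9 genes described here, Hoxa5, Hoxa7, Hoxa9, Hoxa10, Meis1, Pbx3, Eya1, Mef2c and Myb, are known targets of MLL-AF9, a leukaemia oncoprotein, and their open chromatin was followed in cells that do not carry it. Each ATAC-seq peak was assigned to the closest protein-coding gene model of mouse build GRCm38, up to 50 kb away, and a region was taken when that gene was one of the 9 (of 21883 gene models). Peaks of the 16 peak lists merged into 31846 autosomal regions, of which 36 were linked to these genes. Testing was limited to regions found in 3 or more of the shortened lists, 23554 in all and 23 of the 36. Assignment is by distance alone, and the gene that a region regulates is not known from it.

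In leukaemia the fusion joins the DNA-binding part of MLL (the Kmt2a product) to AF9, which recruits elongation factors and the histone methyltransferase DOT1L to promoters. The MLL part keeps a CXXC domain that binds unmethylated CpG DNA. Late HOXA proteins and their cofactors MEIS1 and PBX3 are transcription factors that normally maintain self-renewal in blood stem and progenitor cells and are switched off as the cells mature; MLL fusions hold them on. EYA1 is a transcriptional coactivator with phosphatase activity, MEF2C a MADS-box transcription factor and MYB a factor that progenitors need to proliferate.

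All libraries came from stem and progenitor cells of the bone marrow (HSPCs; Lin- cKit+ Sca1+), sorted as wild-type C57BL/6J donor cells by the CD45.1+/2+ marker pair. Lethally irradiated C57BL/6J recipients (CD45.2) had received 800000 such wild-type marrow cells mixed with 200000 CD45.1 marrow cells. In AF9-experienced mice the 200000 cells were homozygous for hMLL-AF9 and rtTA, the doxycycline-dependent activator; in naive mice they were hMLL-AF9-null with homozygous rtTA only. Starting 6 to 8 weeks after transplantation, doxycycline induction for 5 weeks gave leukaemia and withdrawal for 4 weeks gave remission; the design text does not say separately that naive mice were given doxycycline. Mice were then injected with LPS (lipopolysaccharide, a bacterial cell wall component that triggers inflammation) or PBS (saline) and killed 24 hours later. The groups were AF9-experienced LPS (n = 5), AF9-experienced PBS (n = 4), naive LPS (n = 3) and naive PBS (n = 4). The promoter that drives the transgene and any pooling of animals are not given in the sources used here. Each library is a pool of sorted cells, so fewer cells with a site open and a less open site in every cell cannot be told apart.

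Each region was given, in each library, the percentile rank of its strongest peak, by the authors' -log10 p, among the 19100 strongest autosomal peaks of that library. The strongest peak of a library has 100, and 0 means that no peak of the region was among the 19100, which does not mean that the site was closed. Lists held 19448 to 88816 peaks, and read depth is unknown. The lists of AF9-experienced PBS 1, naive LPS 3 and naive PBS 1 were the shortest and stood apart. The median fold enrichment over background of the 19100 peaks was 9.16 to 13.6 in AF9-experienced LPS, 5.34 to 19.4 in AF9-experienced PBS, 6.58 to 12.8 in naive LPS and 5.07 to 17.5 in naive PBS libraries. Peaks on chromosome Y numbered 3, 2, 0, 0 and 0 in AF9-experienced LPS libraries, 0 in AF9-experienced PBS libraries, 2 in each naive LPS library, and 0, 0, 1 and 0 in naive PBS libraries. Of 13 stem and progenitor markers, 6 had a peak within 1 kb of a gene-model end in every library (Kit, Cd34, Flt3, Tal1, Hlf and Mecom), and Ly6a, which encodes the sorted antigen Sca1, and Slamf1 had none in any. Defining genes of mature cells had none in any library: Pax5 (B cells), Cd3e, Cd3g and Cd8a (T cells), 5 of 7 neutrophil, 3 of 4 monocyte and 3 of 3 mast cell and basophil genes, and Hbb-bt (red cells). Cd3d, Epor and Klf1 had one in all 16 libraries and Cd79a in 14.

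Because MLL reads unmethylated CpG, the sequence before a start was set beside whether the start was open, in 10 annotated starts of 7 of the 9 genes (Pbx3 and Eya1 were not in the table). The 250 bases upstream of 6 starts are shown, from RefSeq on GRCm38.p6, 5′ to 3′ on the gene's own strand, with each CpG in capitals. They are Meis1 at chr11:19018970-19019219 (minus strand) and Myb at chr10:21160985-21161234 (minus strand), open in every library. Next are Hoxa9 at chr6:52227371-52227620 (minus strand) and Hoxa7 at chr6:52218574-52218823 (minus strand), which held no peak there in any. Last are the upstream start of Mef2c at chr13:83503784-83504033 (plus strand), with no peak, and its middle start at chr13:83523406-83523655 (plus strand), open in part of the libraries.
Meis1: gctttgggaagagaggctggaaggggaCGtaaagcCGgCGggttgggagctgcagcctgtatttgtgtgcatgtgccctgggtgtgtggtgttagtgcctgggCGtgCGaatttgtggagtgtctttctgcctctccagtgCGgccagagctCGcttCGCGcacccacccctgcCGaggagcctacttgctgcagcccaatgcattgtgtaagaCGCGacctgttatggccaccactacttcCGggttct
Myb: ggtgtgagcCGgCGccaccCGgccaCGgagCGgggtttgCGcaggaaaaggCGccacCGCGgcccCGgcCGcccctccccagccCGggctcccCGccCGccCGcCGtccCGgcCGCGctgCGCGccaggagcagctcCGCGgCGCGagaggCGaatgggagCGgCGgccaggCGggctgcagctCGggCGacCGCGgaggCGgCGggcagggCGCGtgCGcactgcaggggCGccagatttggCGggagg
Hoxa9: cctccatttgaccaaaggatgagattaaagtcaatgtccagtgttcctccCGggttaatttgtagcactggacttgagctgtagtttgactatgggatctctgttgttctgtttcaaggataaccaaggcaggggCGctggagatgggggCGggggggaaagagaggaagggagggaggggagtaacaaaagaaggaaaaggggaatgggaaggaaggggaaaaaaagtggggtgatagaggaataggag
Hoxa7: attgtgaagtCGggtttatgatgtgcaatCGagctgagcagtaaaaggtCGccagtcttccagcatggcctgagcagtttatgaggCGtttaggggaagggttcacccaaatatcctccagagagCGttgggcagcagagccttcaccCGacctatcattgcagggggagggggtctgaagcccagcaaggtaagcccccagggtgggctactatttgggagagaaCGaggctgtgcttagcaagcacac
Mef2c upstream start: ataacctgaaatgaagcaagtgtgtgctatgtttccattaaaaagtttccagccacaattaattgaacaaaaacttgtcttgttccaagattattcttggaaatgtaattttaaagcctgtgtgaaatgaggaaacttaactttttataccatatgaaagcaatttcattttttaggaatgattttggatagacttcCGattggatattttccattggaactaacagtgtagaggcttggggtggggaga
Mef2c middle start: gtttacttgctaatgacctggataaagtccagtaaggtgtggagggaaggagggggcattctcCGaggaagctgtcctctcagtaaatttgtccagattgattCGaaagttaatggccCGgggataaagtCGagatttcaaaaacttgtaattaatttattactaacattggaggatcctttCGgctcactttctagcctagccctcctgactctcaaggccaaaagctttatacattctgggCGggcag

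Counting peaks of any strength, 16 of 16 libraries had a peak within these 250 bases at Meis1, which holds 13 CpG, and 16 of 16 at Myb, which holds 40. At Hoxa5, with 28 CpG, 12 of 16 libraries had a peak, but only 2 had one among the 19100 strongest. The Mef2c middle start, with 6 CpG, had a peak in 10 libraries (3 of 5 AF9-experienced LPS, 3 of 4 AF9-experienced PBS, 1 of 3 naive LPS and 3 of 4 naive PBS). Hoxa10 had a peak before its inner start, with 20 CpG, in 4 libraries (0 of 5 AF9-experienced LPS, 1 of 4 AF9-experienced PBS, 0 of 3 naive LPS and 3 of 4 naive PBS). Its upstream start, with 7 CpG, had one in 3 libraries, 1 of 4 AF9-experienced PBS and 2 of 4 naive PBS. No library had a peak before Hoxa7 (7 CpG), Hoxa9 (3 CpG), or the upstream (1 CpG) and inner (4 CpG) Mef2c starts. Among 31396 autosomal promoters of the same length, 28.0% had a peak in all 16 libraries and 48.7% in none. The share with none was 83.9% of promoters with 0 to 4 CpG, 50.8% with 5 to 9, 11.2% with 10 to 19 and 3.11% with at least 20. The HOXA and Mef2c starts with no peak fell in the 2 classes with the fewest CpG. Peak widths differ between libraries, with medians of 281 to 594 bp, and whether a peak reaches into a 250-base window depends on its width. The regions nearest the Hoxa7 and Hoxa9 starts lay 565 bp and 868 bp inside the gene.

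**Figure D1:**
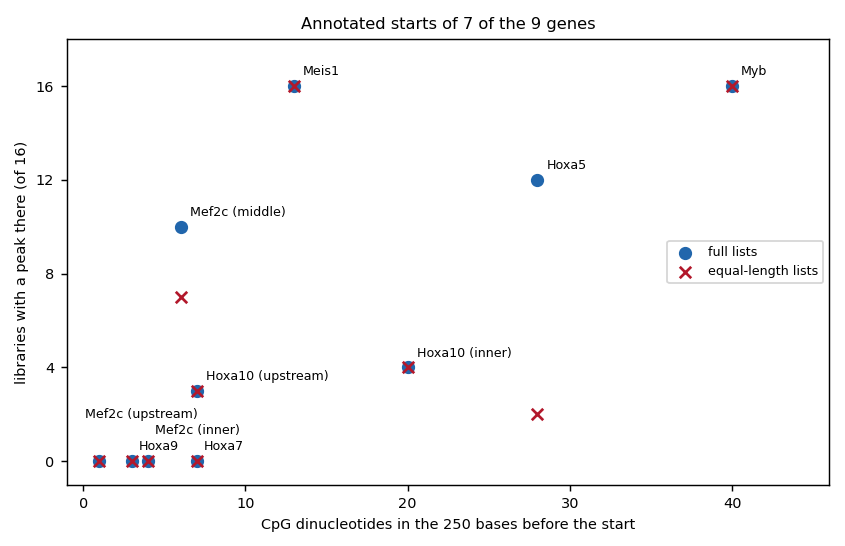
CpG dinucleotides in the 250 bases before each of 10 annotated starts (x axis) and the number of the 16 libraries with a peak there (y axis), for full lists (circles) and for the 19100 strongest peaks (crosses). Meis1 and Myb lie at 16 libraries on both counts, Hoxa5 at 12 and 2, and 4 starts with 1 to 7 CpG lie at 0.

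Motif words for blood and inflammatory factors were searched in the 10 stretches on both strands, with overlapping matches counted. The RUNX word TGTGGT occurred 1 time before Meis1 (14% of 32851 promoters hold it). The ETS word GGAAGT occurred 1 time each before Meis1, the upstream Hoxa10 start and the upstream Mef2c start (19.7% of promoters). The GATA word GATAA occurred 1 time before Hoxa9 and 2 times before the middle Mef2c start (22.6% of promoters), and the MYB word AACGG 2 times before Hoxa5 (14.5%). The AP-1 word TGANTCA reads the same on both strands. Its 2 matches before the inner Mef2c start (6.75%) were the 2 strands of 1 site. None of the 10 stretches held the MEIS word TGACAG (15.9% of promoters), the HOX-PBX word TGATTTA (2.61%) or the NF-kB word (GGGA, any base, then TTTCC; 0.356%). These are matches of letters only.

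The 9 genes differed in how many regions, merged from the 19100 strongest peaks of each library, were linked to them. They also differed in length, from 2.8 kb (Hoxa5) to 200.6 kb (Pbx3), and the counts were not adjusted for it. Counting peaks of any strength, a library had 9 to 28 at Meis1, 4 to 20 at Mef2c and 2 to 21 at Myb. Meis1 had 13 regions (7 tested), Mef2c 7 (5 tested), Myb 4 (2 tested), Pbx3 and Eya1 3 each (2 tested), Hoxa9 and Hoxa10 2 each (both tested) and Hoxa7 1 (tested). Hoxa5 had 1 region, at its start, seen in only 2 of the shortened lists and not tested. Among the 19100 strongest peaks a library had 18 to 24 peaks at these genes: 18 to 23 in AF9-experienced LPS, 21 to 24 in AF9-experienced PBS, 19 to 21 in naive LPS and 21 to 23 in naive PBS libraries. Of the tested regions 12 of 23 (52.2%) had a peak in all 16 lists, against 46.5% of all tested regions. The median of their mean percentiles was 31.8, with a range of 4.00 to 73.1, against a median of 33.8 over all tested regions. The 13 untested regions each had a peak in 1 or 2 lists, 8 of them in 1 of the 3 shortest lists. In full lists 12 of the 13 were present in 10 to 16 libraries.

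The highest-ranked region was an interior region of Mef2c, 912 bp upstream of its inner start, with a mean percentile of 73.1. The ends of Pbx3 (71.1) and Eya1 (64.1) at the higher coordinate followed, then 2 regions deep inside Meis1 (60.6 and 58.0) and the Meis1 start (49.6). The ranges over libraries of neighbours in this order overlapped. A rank by -log10 p also depends on peak width, so this order is not one of openness per length.

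An interior region of Pbx3 was called higher after LPS in both backgrounds, and an interior region of Eya1 in naive mice only. These calls depended on how regions were scored, as given below. The regions at or near the starts of Hoxa7, Hoxa9, Hoxa10, Meis1 and Myb were not called in either background, and the Hoxa5 start was not tested. In naive mice 2 of the 23 regions (8.7%) were called in the LPS minus PBS comparison, both higher, against 3.22% of all tested regions (2.0% higher and 1.22% lower). In AF9-experienced mice 1 of 23 (4.35%) was called, higher, against 5.18% of all (3.44% higher and 1.74% lower). Calls are by limma with a Benjamini-Hochberg adjusted p under 0.05 over all 23554 regions, and p-values measure the spread between libraries labelled as biological replicates. The median difference of the 23 regions was -2.83 percentile points in naive and -0.02 in AF9-experienced mice, against 0.0 and -0.18 over all tested regions. At an unadjusted p under 0.05 there were 5 of 23 regions in each background, against 15.8% of all regions in naive and 19.2% in AF9-experienced mice.

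The region inside Pbx3 lay at chr2:34359528-34360638, 11.4 kb from the higher end of the gene model (chr2:34171457-34372045). Its percentiles were 64.5, 61.2, 65.8, 68.7 and 67.3 in AF9-experienced LPS libraries, against 33.2, 39.2, 28.2 and 38.6 in AF9-experienced PBS libraries. All LPS libraries of this background lay above all PBS libraries. In naive mice the percentiles were 71.5, 54.6 and 53.0 after LPS, against 0, 7.45, 16.9 and 32.6 after PBS. Here too the groups did not overlap, and the only value of 0 was in naive PBS 1, the shortest list. The rank rose with LPS by 30.7 ± 6.8 percentile points (SE; limma, Benjamini-Hochberg adjusted p = 0.00901) in AF9-experienced mice. In naive mice it rose by 45.4 ± 7.7 points (SE; limma, Benjamini-Hochberg adjusted p = 0.00201). The authors' fold enrichment of the same peak, which is not scaled between libraries, did not separate the groups. It was 15.5 to 22.1 in AF9-experienced LPS, 5.62 to 24.5 in AF9-experienced PBS, 9.46 to 23.0 in naive LPS and 13.4 to 22.7 in naive PBS libraries (none in naive PBS 1). In AF9-experienced mice the fold enrichment ran the other way from the rank: it was 22.5 to 24.5 in 3 of the 4 PBS libraries, above all 5 LPS libraries, and 5.62 in PBS 1, 1 of the 3 shortest lists. A peak was present in 15 of 16 full lists.

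At the end of Pbx3 with the higher coordinate, chr2:34371079-34373432, the rank was high in every library. Percentiles were 73.5, 71.6, 68.7, 68.1 and 70.7 in AF9-experienced LPS libraries, against 67.6, 71.2, 73.3 and 68.2 in AF9-experienced PBS libraries. Naive libraries had 66.96, 77.5 and 72.5 after LPS, against 83.8, 66.4, 63.2 and 73.7 after PBS, so the groups overlapped in both backgrounds. The rank averaged 70.5 ± 2.2 in AF9-experienced LPS (n = 5), 70.1 ± 2.7 in AF9-experienced PBS (n = 4), 72.3 ± 5.3 in naive LPS (n = 3) and 71.8 ± 9.2 in naive PBS libraries (n = 4; SD). LPS differed from PBS by 0.45 ± 3.9 points in AF9-experienced mice and 0.55 ± 4.5 points in naive mice (SE).

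The region inside Eya1 lay at chr1:14304457-14305299, 5.7 kb from the higher end of the gene model (chr1:14168953-14311035). Percentiles were 33.0, 52.5, 17.2, 29.5 and 32.3 in AF9-experienced LPS libraries, against 17.6, 16.8, 5.26 and 0 in AF9-experienced PBS libraries. One LPS library, replicate 3, lay within the PBS range. In naive mice they were 39.1, 34.9 and 44.3 after LPS, against 0 in all 4 PBS libraries. The rank rose by 39.4 ± 8.3 points in naive mice (SE; limma, Benjamini-Hochberg adjusted p = 0.00965). The difference of 23.0 ± 7.3 points in AF9-experienced mice was not called (SE; limma, Benjamini-Hochberg adjusted p = 0.0724). It was called without AF9-experienced LPS 3 (26.9 points, adjusted p = 0.0459) and without the 3 shortest lists (25.5 points, adjusted p = 0.0352; both limma). The naive PBS zeros are ranks below 19100, not missing peaks: 3 of the 4 full lists held a peak, at a fold enrichment of 7.90 to 12.0, against 7.84 to 14.6 in the 3 naive LPS lists.

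The end of Eya1 with the higher coordinate, represented by a region 0.5 kb inside it, had percentiles of 65.3, 72.9, 55.7, 73.9 and 61.5 in AF9-experienced LPS libraries, against 65.9, 69.98, 69.0 and 67.2 in AF9-experienced PBS libraries. Naive libraries had 57.1, 56.5 and 61.0 after LPS, against 64.4, 59.2, 64.3 and 61.4 after PBS, and the groups overlapped in both backgrounds. The rank averaged 65.8 ± 7.7 in AF9-experienced LPS (n = 5), 68.0 ± 1.8 in AF9-experienced PBS (n = 4), 58.2 ± 2.4 in naive LPS (n = 3) and 62.3 ± 2.5 in naive PBS libraries (n = 4; SD). It was not called in any comparison. At both genes the interior region and the region at the end thus had different LPS results, though the difference between the 2 regions of a gene was not tested.

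**Figure D2:**
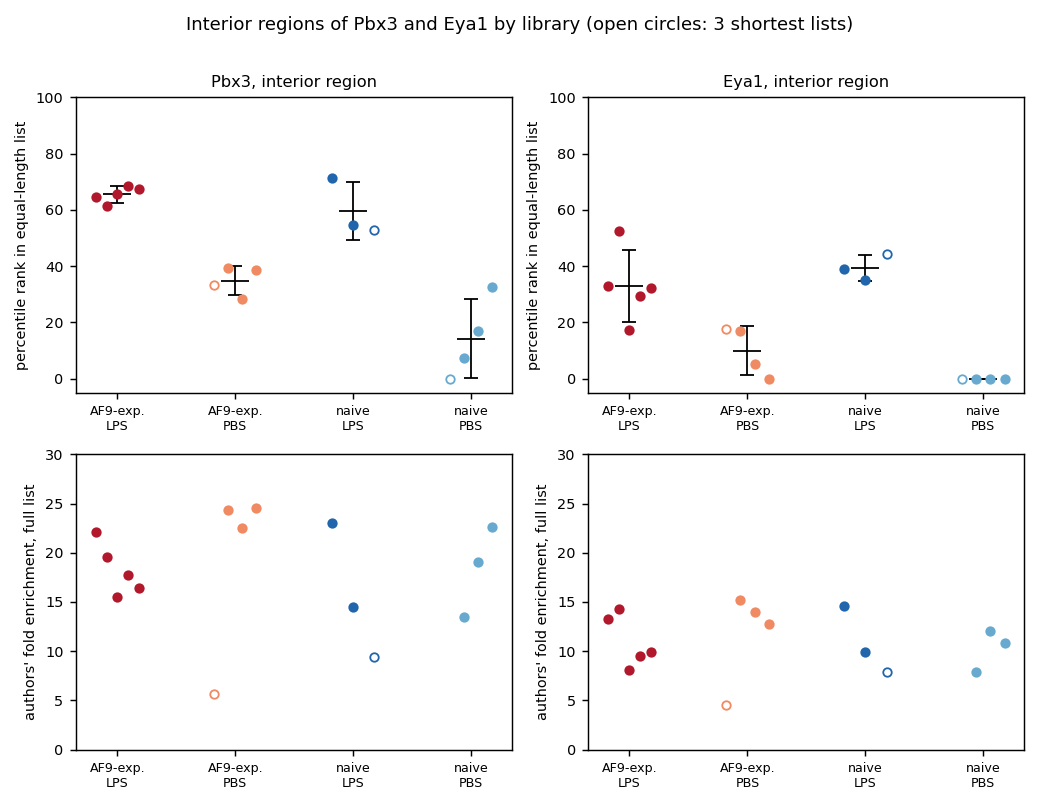
Interior regions of Pbx3 and Eya1 in each library: percentile rank (top, with group mean and SD) and the authors' fold enrichment in the full list (bottom). LPS ranks at Pbx3 lie between 53.0 and 71.5, all above the PBS ranks of 0 to 39.2, while the fold enrichment of the LPS libraries lies within the range of the PBS libraries or overlaps it; open circles are the 3 shortest lists.

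The calls at these 2 regions depended on how regions were scored. Neither was called in naive mice when peaks were ranked by fold enrichment (41.1 points, adjusted p = 0.173 at Pbx3; 60.0 points, adjusted p = 0.0825 at Eya1; limma). When a peak had to cover at least 50% of a region, the naive differences were 27.8 points at Pbx3 (adjusted p = 0.534) and 39.4 points at Eya1 (adjusted p = 0.104; limma). With 9550 peaks per list the naive Pbx3 difference was 19.4 points (adjusted p = 0.344; limma). In AF9-experienced mice the Pbx3 region was not called by fold enrichment (20.1 points, adjusted p = 0.22) or with 50% cover (39.0 points, adjusted p = 0.184; limma). With the naive libraries fitted alone the differences stayed at 45.4 points at Pbx3 and 39.4 points at Eya1 but were not called (adjusted p = 0.0685 at Pbx3 and 0.05 at Eya1; limma). All naive LPS libraries had more peaks on chromosome Y than any naive PBS library, so the source of those peaks and LPS cannot be told apart in that background. In AF9-experienced mice the Pbx3 region was called in the 3 LPS libraries with no Y peak set against PBS (32.5 points, adjusted p = 0.0268; limma), while the Eya1 region differed by 16.4 points (adjusted p = 0.22).

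The HOXA genes lie side by side on chromosome 6, and none of their 5 tested regions was called. Hoxa10 (chr6:52231197-52240854) had a region at each of its 2 starts. At the upstream start, chr6:52239959-52240860, percentiles were 42.2, 8.84, 0, 4.1 and 0.304 in AF9-experienced LPS libraries, against 6.16, 46.8, 57.6 and 51.5 in AF9-experienced PBS libraries. Replicate 1 of each group lay with the other group. In naive mice they were 21.9, 7.26 and 24.4 after LPS, against 42.0, 49.7, 52.8 and 39.5 after PBS, with no overlap. The differences of -29.5 ± 10.1 points in AF9-experienced mice (SE; adjusted p = 0.0966) and -28.1 ± 11.5 points in naive mice (SE; adjusted p = 0.214) did not pass the threshold (limma, Benjamini-Hochberg). Whether the region was called in AF9-experienced mice depended on the libraries and settings used. The region was called lower without AF9-experienced LPS 1 (-37.2 points, adjusted p = 0.0265), without AF9-experienced PBS 1 (-40.9 points, adjusted p = 0.0104) and without the 3 shortest lists (-40.9 points, adjusted p = 0.00618; all limma). It was also called lower with the 3 LPS libraries that had no Y peak (-39.1 points, adjusted p = 0.0365; limma). Some other alternatives gave smaller differences, not called. With 9550 peaks per list the AF9-experienced difference was -4.58 points (limma adjusted p = 0.557). The naive one was -1.38 points (limma adjusted p = 0.958). With the median fold as covariate they were -19.0 (limma adjusted p = 0.229) and -20.0 points (limma adjusted p = 0.275). Without AF9-experienced PBS 3 the AF9-experienced difference was -23.8 points (limma adjusted p = 0.296). At the inner start, chr6:52233628-52235210, the rank averaged 9.8 ± 14.0 in AF9-experienced LPS (n = 5), 21.8 ± 20.1 in AF9-experienced PBS (n = 4), 10.6 ± 18.4 in naive LPS (n = 3) and 19.6 ± 14.0 in naive PBS libraries (n = 4; SD). Of the 16 shortened lists 11 held a peak there.

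Hoxa7 (chr6:52215623-52218573) had 1 region, chr6:52216951-52218008, inside the gene. Percentiles were 5.98, 25.8, 10.3, 17.4 and 24.1 in AF9-experienced LPS libraries, against 39.8, 30.1, 33.0 and 30.7 in AF9-experienced PBS libraries. In naive mice they were 13.9, 15.1 and 6.08 after LPS, against 56.3, 26.4, 19.0 and 32.6 after PBS. The LPS libraries lay below the PBS libraries in both backgrounds with no overlap, yet the differences of -16.7 ± 7.8 and -21.9 ± 8.9 points (SE) had adjusted p-values of 0.241 in AF9-experienced and 0.21 in naive mice (limma, Benjamini-Hochberg).

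Hoxa9 (chr6:52223097-52227370) had a region inside the gene, 868 bp from its start, at chr6:52225681-52226502. Its percentiles were 28.3, 52.2, 43.0, 40.4 and 43.8 in AF9-experienced LPS libraries, against 30.7, 25.6, 31.0 and 29.3 in AF9-experienced PBS libraries. In naive mice they were 40.3, 21.2 and 42.7 after LPS, against 7.88, 20.6, 23.9 and 28.4 after PBS. Most LPS libraries were above the PBS libraries here, the opposite way to Hoxa7 and Hoxa10, but the groups overlapped in both backgrounds. The differences of 12.4 and 14.5 points were not called (adjusted p = 0.367 in AF9-experienced and 0.414 in naive mice; limma, Benjamini-Hochberg). The other Hoxa9 region, 592 bp past the far end, had 63.8, 47.4, 25.2, 25.6 and 21.6 in AF9-experienced LPS libraries, against 22.8, 44.3, 51.5 and 46.9 in AF9-experienced PBS libraries. It had 33.5, 47.3 and 45.98 in naive LPS libraries, against 55.5, 49.98, 44.0 and 56.9 in naive PBS libraries, with overlap in both backgrounds. It averaged 36.7 ± 18.3 in AF9-experienced LPS (n = 5), 41.4 ± 12.8 in AF9-experienced PBS (n = 4), 42.3 ± 7.6 in naive LPS (n = 3) and 51.6 ± 5.9 in naive PBS libraries (n = 4; SD). Hoxa5 (chr6:52201754-52204587) entered the 19100 strongest peaks only in AF9-experienced PBS 3 (1.2) and naive PBS 3 (13.8). Its region also overlaps the gene model of Hoxa3, and a peak of any strength was in 14 of 16 full lists.

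**Figure D3:**
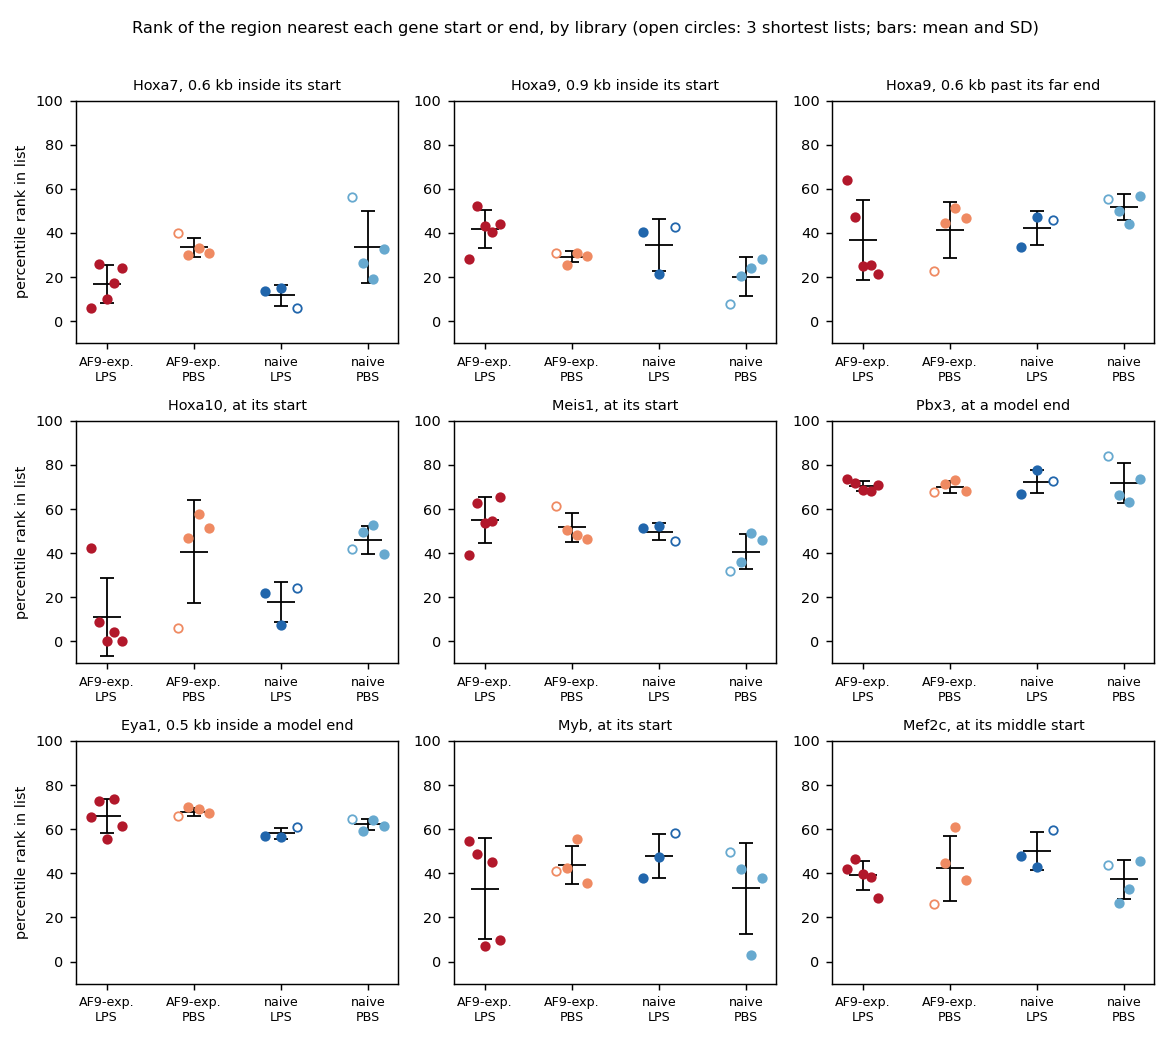
Percentile rank of the region nearest a start or end of each gene (Hoxa9 with 2 regions, Mef2c at its middle start, Hoxa5 not tested), by library, with group mean and SD; open circles are the 3 shortest lists. LPS libraries lie below PBS libraries at Hoxa7 in both backgrounds, and at Hoxa10 AF9-experienced LPS 1 (42.2) and AF9-experienced PBS 1 (6.16) lie apart from their groups.

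Meis1 (chr11:18880428-19019651), the HOXA9 partner, was open at its start in every library and not called there in any comparison. The region chr11:19018455-19020013 had percentiles of 39.0, 62.7, 53.7, 54.4 and 65.6 in AF9-experienced LPS libraries, against 61.4, 50.4, 48.1 and 46.6 in AF9-experienced PBS libraries. In naive mice they were 51.6, 52.2 and 45.4 after LPS, against 32.1, 36.0, 48.9 and 45.8 after PBS. Groups overlapped in both backgrounds. The 2 strongest interior regions, 44.1 kb and 48.9 kb from a model end, lay at 60.6 and 58.0 on average, and their LPS differences were between -2.8 and 5.8 points in both backgrounds. A weak region 7.3 kb upstream of the start (chr11:19026311-19027773) had 5.02, 15.1, 0, 19.3 and 3.28 in AF9-experienced LPS libraries and 0, 10.7, 12.9 and 10.7 in AF9-experienced PBS libraries. It had 0 in all 3 naive LPS libraries, against 0, 27.6, 11.1 and 28.7 in naive PBS libraries. That naive difference of -16.8 points was not called (limma, Benjamini-Hochberg adjusted p = 0.234).

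Mef2c (chr13:83504017-83667079) was strongest at chr13:83571843-83572695. Percentiles were 58.7, 63.7, 73.5, 71.7 and 77.9 in AF9-experienced LPS libraries, against 86.8, 79.8, 76.6 and 77.8 in AF9-experienced PBS libraries. In naive mice they were 76.2, 65.0 and 58.5 after LPS, against 76.4, 77.7, 76.4 and 72.8 after PBS. The LPS values were mostly lower and more spread, and overlapped the PBS values in both backgrounds. The differences were -11.1 ± 4.2 (SE; adjusted p = 0.132) in AF9-experienced and -9.3 ± 4.7 points (SE; adjusted p = 0.35) in naive mice (limma, Benjamini-Hochberg). At its middle start Mef2c averaged 39.2 ± 6.5 in AF9-experienced LPS (n = 5), 42.2 ± 14.8 in AF9-experienced PBS (n = 4), 50.2 ± 8.7 in naive LPS (n = 3) and 37.3 ± 9.0 in naive PBS libraries (n = 4; SD).

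The start of Myb (chr10:21124930-21160984), covered by chr10:21160525-21161784, was in every list but varied widely within groups. Percentiles were 54.7, 48.7, 6.94, 45.3 and 9.64 in AF9-experienced LPS libraries, against 40.9, 42.4, 55.7 and 35.8 in AF9-experienced PBS libraries. They were 38.0, 47.5 and 58.3 in naive LPS libraries, against 49.7, 41.9, 3.1 and 38.1 in naive PBS libraries. AF9-experienced LPS 3 and 5 and naive PBS 3 lay far below the other libraries of their groups. The differences of -10.6 points in AF9-experienced and 14.7 points in naive mice were smaller than 1.5 times their SE of 10.4 and 11.9 points. A region 25.7 kb upstream of Myb averaged 14.9 to 20.8 in the 4 groups.

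**Figure D4:**
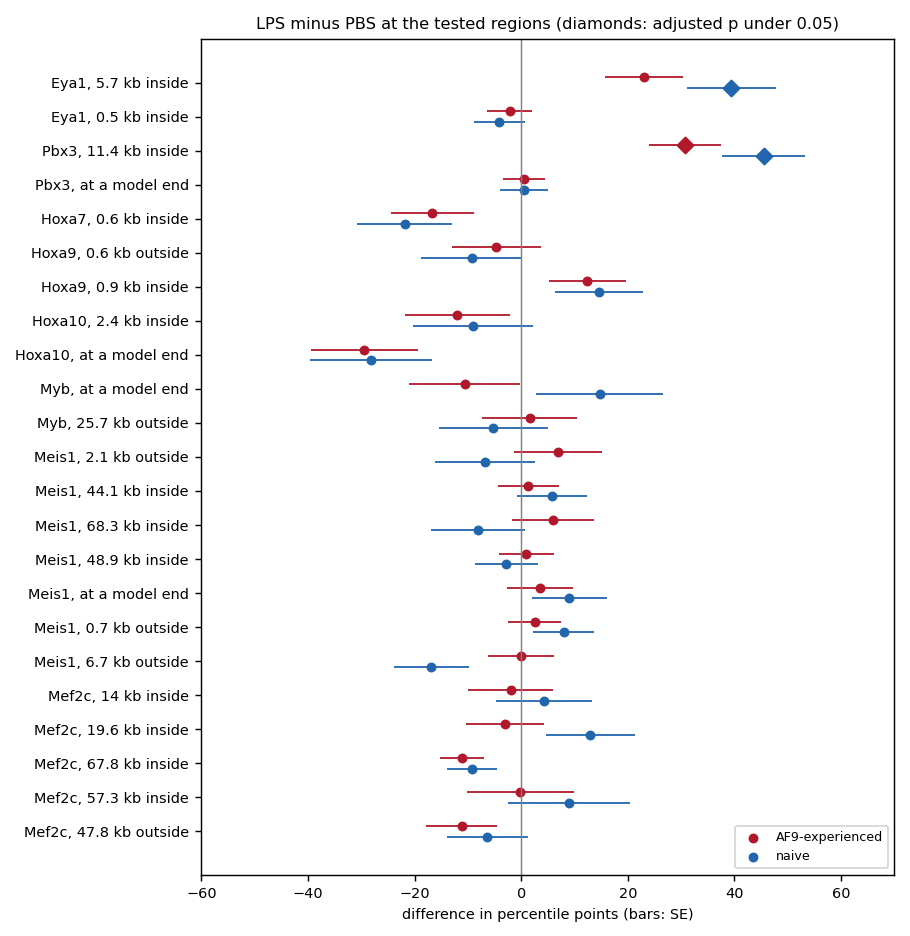
LPS minus PBS in percentile points at the 23 tested regions in AF9-experienced (red) and naive (blue) mice, with SE bars and distances to the nearer gene-model end; diamonds mark a limma adjusted p under 0.05. The interior Pbx3 region is called in both backgrounds (30.7 and 45.4 points), the interior Eya1 region in naive mice (39.4 points), and no other region in either.

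Past exposure to MLL-AF9 leukaemia gave no called difference at these genes. After LPS, 0 of 23 regions were called between AF9-experienced and naive mice (0.0127% of all regions, 3 in number), and after PBS 0 of 23 (0.0% of all), by limma with Benjamini-Hochberg adjustment. At an unadjusted p under 0.05 there were 0 of 23 regions after LPS and 2 of 23 after PBS, against 5.39% and 3.20% of all tested regions. Differences after LPS ran from -14.9 points, at the Myb start, up to 8.5 points, upstream of Meis1, with a median SE of 8.0 points. After PBS they ran from -18.6 up to 20.6 points with a median SE of 7.7 points.

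The 2 regions with an unadjusted p under 0.05 after PBS were the interior Pbx3 region and an interior Meis1 region 68.3 kb from a model end. The Pbx3 region averaged 34.8 ± 5.2 in AF9-experienced PBS libraries (n = 4) and 14.2 ± 14.1 in naive PBS libraries (n = 4; SD), a difference of 20.6 ± 7.1 points (SE; limma, unadjusted p = 0.00864, Benjamini-Hochberg adjusted p = 1.0). After LPS it averaged 65.5 ± 2.9 in AF9-experienced (n = 5) and 59.7 ± 10.3 in naive libraries (n = 3; SD). The Meis1 region had 4.07, 8.92, 5.14 and 9.76 in AF9-experienced PBS libraries, against 32.3, 25.3, 22.3 and 22.4 in naive PBS libraries, with no overlap. Its difference was -18.6 ± 8.1 points (SE; limma, unadjusted p = 0.0317, Benjamini-Hochberg adjusted p = 1.0). After LPS that region ranged over 0 to 32.8 in AF9-experienced and 0 to 31.8 in naive libraries.

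**Figure D5:**
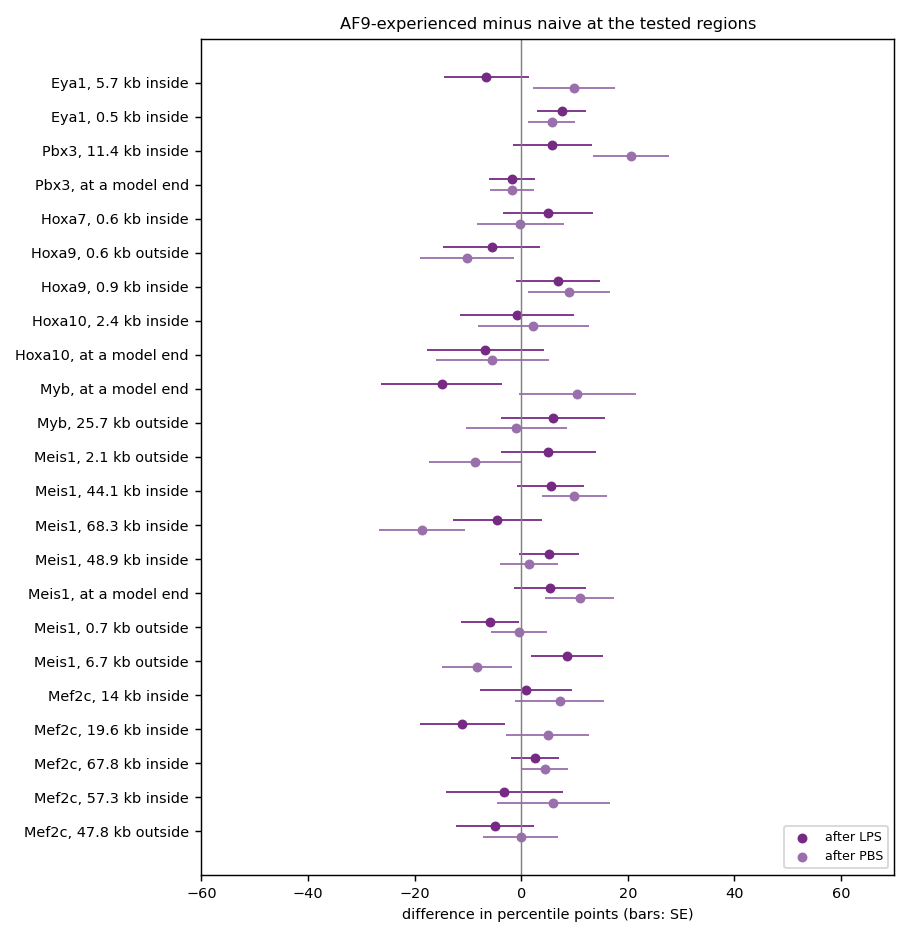
AF9-experienced minus naive in percentile points at the 23 tested regions, after LPS (dark) and after PBS (light), with SE bars. No region is called; the widest differences after PBS are at the interior Pbx3 region (20.6 points) and an interior Meis1 region (-18.6 points).

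The LPS differences of the 2 backgrounds were also compared directly, as an interaction in the same limma fit. Of the 23 regions 0 were called (0.0% of all tested regions), and 0 of 23 had an unadjusted p under 0.05, against 2.94% of all. The interaction was -14.7 ± 10.3 points at the interior Pbx3 region and -16.5 ± 11.1 points at the interior Eya1 region (SE; unadjusted p = 0.164 and 0.152; limma). A smaller LPS difference in AF9-experienced mice was therefore not shown at either region, and the call at Eya1 in naive mice alone does not test for one.

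Other regions of the genome followed nearly the same pattern over the 16 libraries as these interior regions. By the mean absolute difference in percentile over 16 libraries, the regions most like the Pbx3 region overlapped Ptpn12, a protein tyrosine phosphatase gene (5.99 points), Ganc, an alpha-glucosidase gene (6.23 points), and Ddx19a, an RNA helicase gene (6.28 points), against a median of 33.6 points over all tested regions. For the Eya1 region they overlapped Arhgef28 (4.65 points), lay 34.7 kb from Ikzf2, which encodes the zinc finger factor Helios (5.21 points), and overlapped Lmna, the lamin A gene (5.92 points), against a median of 25.0 points. The regions at Arhgef28, Ikzf2 and Lmna had 0 in all PBS libraries and so entered testing through LPS libraries alone. Unlike the Eya1 region, they were called in AF9-experienced mice (adjusted p = 0.0029, 0.00345 and 0.000665; limma).

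Related genes outside the 9 were read in the same fit. Of 16 other HOXA cluster and TALE partner genes, 9 had a tested region (14 regions). In naive mice no gene of this list was called. Of 20 further reported MLL-fusion targets, 19 were measured in 88 regions. In AF9-experienced mice 4 of these genes had a region called higher (Cdk6, Bcl2, Arid1b and Etv6), 1 lower (Mecom) and 14 none. In naive mice 4 had one higher (Cdk6, Bcl2, Arid1b and Runx2), 2 lower (Flt3 and Id2) and 13 none. The called regions were 7.95% of the list's regions in AF9-experienced mice, against 5.18% of all tested regions, and 9.09% in naive mice, against 3.22% of all. The Arid1b region called in naive mice was not the one called in AF9-experienced mice. In AF9-experienced mice a region inside Cdk6, a cell cycle kinase gene, averaged 45.3 ± 11.7 after LPS (n = 5) and 0 after PBS (n = 4; SD). The Cdk6 and Etv6 regions had 0 in every PBS library of both backgrounds, so they met the minimum of 3 lists through LPS libraries alone, and that fixed the direction of their differences. Bcl2, a survival gene, averaged 45.9 ± 13.7 after LPS and 0.618 ± 1.2 after PBS. The Bcl2 region had 0 in every naive PBS library, so it too met the minimum mainly through LPS libraries. The Arid1b region, in a chromatin remodelling subunit gene, averaged 32.8 ± 13.4 after LPS and 2.2 ± 4.4 after PBS, and Mecom, a stem cell factor gene, 1.94 ± 4.3 after LPS and 29.3 ± 20.1 after PBS (SD). Flt3, a receptor of early progenitors, stood at 79.4 ± 4.7 in naive LPS (n = 3) and 90.7 ± 3.3 in naive PBS libraries (n = 4; SD), and a region 22.9 kb from Id2, an inhibitor of helix-loop-helix factors, at 52.6 ± 20.1 in naive LPS and 81.2 ± 4.2 in naive PBS libraries. Runx2, a RUNX family factor gene, stood at 57.0 ± 5.7 in naive LPS and 15.7 ± 18.5 in naive PBS libraries (SD).

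Genes of the MLL-AF9 complex and its cofactors were measured for 20 of 20 members in 44 regions. In naive mice none was called. In AF9-experienced mice 1 region was called higher and 3 lower (9.09% of the list's regions, against 5.18% of all tested regions). Dot1l, the histone H3 methyltransferase, fell to 0.802 ± 1.8 after LPS (n = 5), against 43.9 ± 12.9 after PBS (n = 4; SD; limma, Benjamini-Hochberg adjusted p = 0.00678). The same region had 0 in all naive LPS libraries, against 36.9 ± 24.9 in naive PBS libraries (SD), a difference that was not called. The Dot1l region thus met the minimum of 3 lists mainly through PBS libraries, which largely fixed the direction of its difference. Cbx8, a chromobox protein that binds AF9, fell to 90.1 ± 1.5 after LPS (n = 5), against 95.7 ± 0.57 after PBS (n = 4; SD; limma, Benjamini-Hochberg adjusted p = 0.0462). Ell, an elongation factor of the complex, had 1 region higher, at 25.7 ± 9.0 after LPS and 0 in all PBS libraries (SD; limma, Benjamini-Hochberg adjusted p = 0.0126), and 1 region lower. The higher Ell region also had 0 in all naive PBS libraries and so entered testing through LPS libraries alone. The median differences of the 3 lists were 4.19 (HOXA and TALE), 1.90 (other targets) and -1.71 points (complex) in AF9-experienced mice, against -0.18 over all regions, and 1.26, 0.21 and 0.27 points in naive mice, against 0.0. In none of these 3 lists was a gene called between AF9-experienced and naive mice or in the interaction.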

How the data were processed

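Open chromatin was measured by ATAC-seq, with 1 deposited peak list for each of 16 biological replicates; the labels list 32 samples, 2 technical libraries per replicate. The labels' protocol names both Omni-ATAC and a Chromium chemistry. Tools named in the submitters' processing notes are MACS3, BWA, Picard, Trim Galore and FastQC (no version), with build GRCm38. Filters are not given in the sources used here. Each deposited list gives the authors' fold enrichment per peak, a ratio of the peak to the background of its own library. The deposited -log10 p-value ranked the peaks of a list, and the deposited -log10 q-value, at least 1.30 in every list, served as a stricter filter.

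Each list was shortened to its 19100 strongest autosomal peaks, overlapping peaks were merged, and the percentile rank of the strongest peak was the value of a region. One mean per group was fitted to all 16 libraries with limma 3.58.1 (trend and robust options) in R 4.3.3, on regions found in 3 or more lists, and p-values were adjusted over all of them. The fit was checked on simulated data with normal noise and no floor, with differences added only to mid-ranked regions of small spread. That check does not cover low-ranked regions such as the interior Eya1 region. Because a rank depends on all other peaks, differences are in percentile points and not in accessibility. No binomial interval was given, since read depth is unknown. Gene models and promoter sequences are from RefSeq (GRCm38.p6), 21883 protein-coding models; models carry no strand, and starts come from the promoter table.

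The members and gene lists were chosen with earlier results of these data known. Values per library were printed for the strongest region within 1 kb of a gene-model end (Mef2c had none), every called region, and, for genes with no call, the region with the smallest LPS p; one interior Meis1 region was added for its p after PBS, after its values were seen, as were the strongest other regions given by group means. For the other lists values were given for called members, up to 4 by adjusted p in each contrast. The regions most alike were the 3 of other genes with the smallest mean absolute difference. Replicate numbers were not used to pair libraries. The alternatives were the ranking column, list length, region definition, overlap, presence scores, libraries, weights, covariates, link distance and leaving out each replicate. Peak sequences were not used here. Some results on single genes outside the 9 are not reported here.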

Additional observations from a re-analysis of the deposited data

Results flagged for a closer look

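In 5 of 69 groups of 4 or 5 libraries tested, 1 library lay far from the others of its group by its gap relative to the range. The rule flags about 1 in 20 groups by chance for values without a floor, and these ranks have a floor at 0. Where all other libraries had 0, the gap equals the range whatever the size of the value, so such a flag carries no information on distance. At the upstream start of Hoxa10, AF9-experienced LPS 1 had a percentile of 42.2, against 0 to 8.84 in the other 4 libraries of its group. Upstream of Myb, 25.7 kb away, AF9-experienced PBS 1 had 0, against 23.9 to 28.4. At the region 0.7 kb outside the Meis1 model, AF9-experienced PBS 3 had 6.2 and the others 0. In full lists 3 of the 4 libraries of that group held a peak there, at a fold enrichment of 6.76 to 7.63. At the region 6.7 kb outside the Meis1 model, AF9-experienced PBS 1 had 0, against 10.7 to 12.9. At the region 47.8 kb past Mef2c, AF9-experienced LPS 1 had 15.4 and the others 0. AF9-experienced PBS 1 is 1 of the 3 shortest lists.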

How the results depend on the processing

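The number of regions of the 9 genes called between LPS and PBS was 2 in naive and 1 in AF9-experienced mice. It was 0 in both when peaks were ranked by fold enrichment, when a peak had to cover at least 50% of a region, and when presence in the full list or at a -log10 q of at least 5 was tested. With 9550 peaks per list it was 0 in naive mice, and in a fit of the naive groups alone it was 0. Without the 3 shortest lists it was 3 in AF9-experienced mice, and with 59600 peaks per list as well 5 in naive and 6 in AF9-experienced mice. With library weights it was 4 in each, adding Hoxa10, Meis1 and Mef2c regions lower and the Eya1 region. With only the AF9-experienced LPS libraries without Y peaks, an alternative chosen after seeing the data, it was 2 in AF9-experienced mice. Leaving out 1 library gave 2 to 2 in naive and 1 to 2 in AF9-experienced mice. No difference between AF9-experienced and naive mice and no interaction was called at these genes under any of these alternatives. Fixed windows, no filter, a 10 kb link and median fold as covariate kept the counts, and no single difference changed sign past a threshold. The cause of these changes was not tested.

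With the replicate number as a block, 2 regions in naive and 1 in AF9-experienced mice were called; the Pbx3 difference was 48.3 points (limma adjusted p = 0.00668) in naive and 30.2 points (adjusted p = 0.0274) in AF9-experienced mice, and no call at these genes changed. Libraries with the same number correlated at -0.215 to 0.231 over 21 pairs, and 3 of 15 correlated best with their own number. A pairing by number was not seen in these correlations, which cannot show that there was none.

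Over all tested regions the calls between LPS and PBS were 758 in naive and 1221 in AF9-experienced mice. They were 4 and 381 by fold enrichment, 52 and 195 with 9550 peaks, 132 and 305 with 50% cover, 0 and 0 by presence, 1532 and 2472 without the 3 shortest lists, 4714 and 7327 with longer lists as well, 3222 and 4099 with library weights, 505 and 890 with the block, and 136 in naive groups alone. Leaving out 1 library gave 343 to 1132 in naive and 622 to 1644 in AF9-experienced mice. AF9-experienced and naive mice differed at 3 regions after LPS, 0 to 12 when 1 library was left out, 13 with weights, 9 with longer lists and 24 without the AF9-experienced LPS libraries that had Y peaks (the naive libraries with Y peaks stayed in); after PBS the count was 0, and 28 with weights.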
